A study of Mus musculus with 24 samples.

Results

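E2F factors are DNA-binding proteins that control the genes of S phase entry, and pocket proteins are the repressors that bind them. In resting cells, the pocket proteins p130 and pRb hold E2F sites silent, p130 mainly together with E2F4 or E2F5 and the MuvB proteins in the complex known as DREAM. Cyclin-dependent kinases release this repression by phosphorylating the pocket proteins, and the p53 target p21 blocks these kinases. Splenic lymphocytes are largely resting cells, whereas the erythroid precursors of the mouse spleen divide.

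The 10 genes described here are the pocket protein genes Rb1, Rbl1 and Rbl2 and the E2F genes E2f1, E2f2, E2f3, E2f4, E2f5, E2f7 and E2f8. They were taken by symbol from the 21671 genes listed in every sample, and all 10 passed the filter on low values in every main fit. RNA was sequenced from 24 samples of spleen cells of C57/Bl6 mice of 8 weeks of age, in 8 groups. B cells were taken with B220 magnetic beads, and the cells left after this depletion are the non-B cells. For each cell type there were 4 control (mock) and 4 irradiated Trp53+/+ samples and 2 control and 2 irradiated Trp53-/- samples, and the irradiated mice had received 7 Gy to the whole body 4 h before. The Trp53 deletion is carried by all cells of these mice, and each group came from as many mice as it has samples. B and non-B cells were separated from the same spleens, but no source used here ties the sample numbers of the cell types to each other. The label of each group is a cell fraction, not a pure cell type.

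The values are RPKM, read numbers divided by gene length and by the exonic reads of the library, and a change was called where limma gave an adjusted p (Benjamini-Hochberg) under 0.05 and the log2 fold change exceeded 0.58 in size. The estimated depth was 4.72 to 11 M reads, and a member had 19.4 to 4350 estimated reads in a library. RPKM are relative to all reads on exons, so that less RNA of a gene per cell and fewer cells that express it cannot be told apart. Cdkn1a, the p21 gene, was at 0.893 to 1.36 RPKM in Trp53+/+ control B cells and at 82.3 to 97.8 after IR, and stayed at 0.562 to 0.726 in the 4 Trp53-/- B samples. Trp53 itself was at 21.6 and 21.7 RPKM in Trp53-/- control B cells against 44.8 to 47.9 in Trp53+/+ ones, so its transcript was reduced, not absent. The summed RPKM of 9 B cell markers was 1037 to 1205 in Trp53+/+ control B cells and 341 to 553 in the non-B cells, and that of 9 T cell markers was 44.0 to 57.0 and 407 to 591. In some irradiated Trp53+/+ libraries many olfactory and vomeronasal receptor genes, which are silent in these cells, had an RPKM above 0. Their share was 36.6%, 47.3%, 6.81% and 15.8% of 1409 genes in the B cell replicates, and the non-B replicates had 24.6%, 8.38%, 51.2% and 35.8%, against 5.25% to 9.08% in unstressed and 6.6% to 13% in irradiated Trp53-/- libraries.

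In unstressed Trp53+/+ B cells, E2f4, Rb1 and Rbl2 had the highest mean levels of the members per length. E2f4 led with a mean of 45.8 ± 1.17 RPKM (SD, n = 4), followed by Rb1 (36.4 ± 1.44), Rbl2 (30.6 ± 0.178) and E2f2 (27.7 ± 2.77). E2f5 (15.3 ± 1.37) and Rbl1 (14.9 ± 0.834) were next and overlapped, as did Rbl2 and E2f2. E2f3 (7.16 ± 0.317), E2f1 (5.57 ± 0.789), E2f8 (2.93 ± 0.873) and E2f7 (0.983 ± 0.234) closed the order without overlap between neighbours. After IR, Rbl2 was first at 65.9 ± 2.31 RPKM and E2f2 stood near Rbl1, whose values it overlapped. In unstressed Trp53+/+ non-B cells, E2f4 (54.5 ± 5.05) led again and E2f7 (2.42 ± 1.56) was last, but 7 of the 9 pairs of neighbours overlapped, since replicates 1 and 2 differed widely from 3 and 4.

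**Figure D1:**
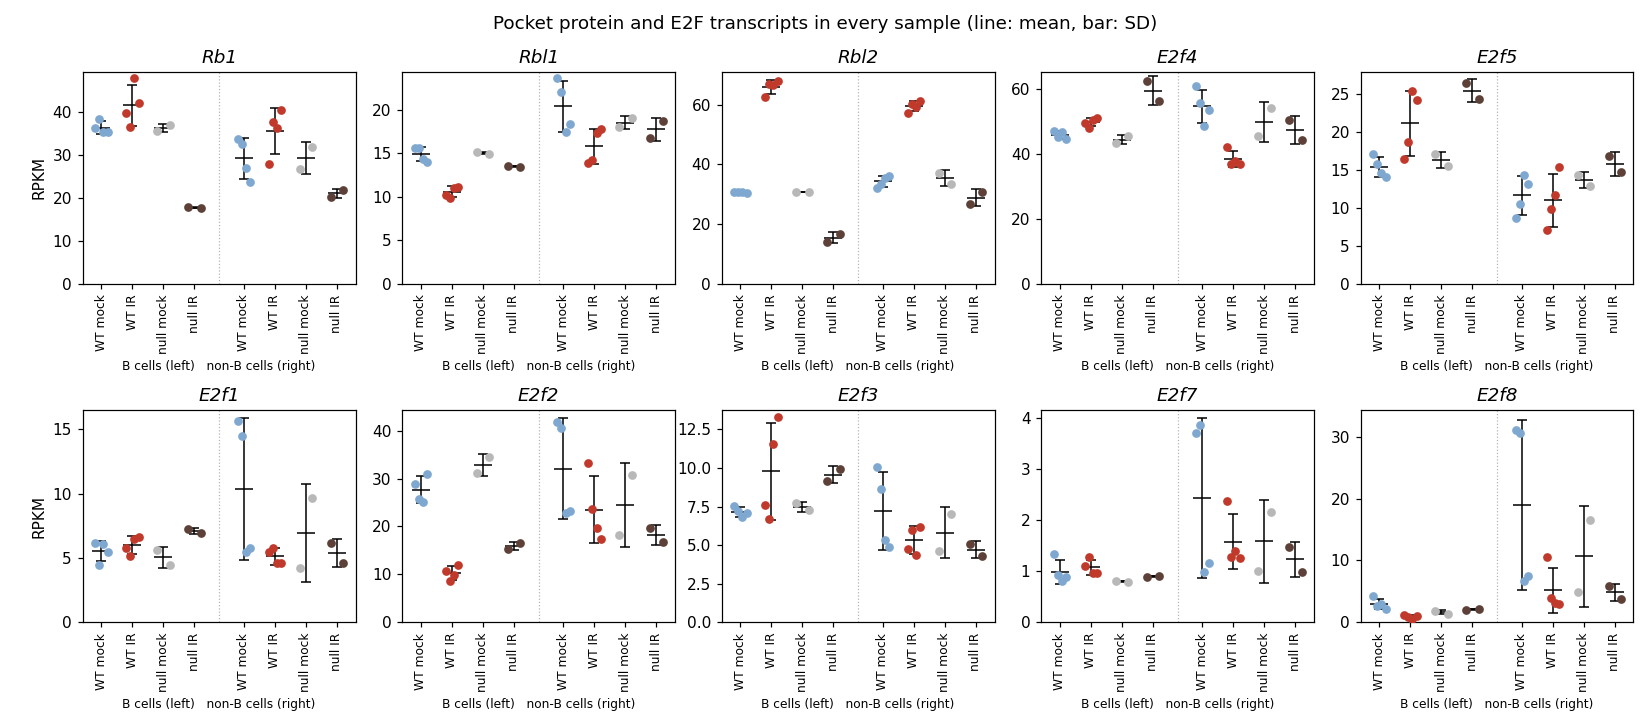
RPKM of the 10 members in each of the 24 samples, with B cells on the left and non-B cells on the right of each panel, points for samples, lines for means and bars for SD (n = 4 WT, Trp53+/+, and n = 2 null, Trp53-/-). Rbl2 separates irradiated from control samples in both cell types, upward in Trp53+/+, and E2f8 is high in 2 of the 4 control non-B samples.

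The regions around the start sites of the members described most closely are shown, because E2F genes are known to be regulated through E2F sites of their own. RefSeq promoter windows of 250 bases before and 50 bases after the start (build GRCm38.p6) were found for 7 of the 10 members, E2f1, E2f2, E2f3, E2f7, E2f8, Rbl1 and Rbl2. The E2F-type strings TTTCCCGC, TTTCGCGC, TTTGCCGC and TTTGGCGC were searched on both strands. At least 1 of them was in a window of 4 of the 7 members, E2f2, E2f3, E2f7 and Rbl1. The 7 members had 9 windows, of which 4 held a match, against 2.26% of the 32851 promoter windows of all genes. A second window of E2f2 (chr4:136180532-136180831) and of E2f3 (chr13:29984342-29984641) held none. Matches are printed in capitals, and a match is a description of these letters, not a site shown to be bound. In Rbl1, TTTCGCGC lay 18 to 11 bases before the start, in E2f2, TTTGGCGC lay 39 to 46 bases after it, and in E2f3, TTTCCCGC lay on the opposite strand from 11 to 4 bases before it and is printed as its reverse complement. In E2f7, TTTCCCGC lay on the opposite strand near the far end of the window. The windows of E2f1, E2f8 and Rbl2 held none of these letters, and no member's window held the half-site consensus of p53, which 8.36% of all windows held. The window of E2f1 (chr2:154569377-154569676, minus strand) may lie inside the gene, not at its 5' end. The lack of a match there thus does not describe the main promoter of E2f1. Below are Rbl1 (chr2:157204485-157204784, minus strand), E2f2 (chr4:136172024-136172323, plus strand), E2f3 (chr13:29986014-29986313, minus strand) and, without a match, Rbl2 (chr8:91069807-91070106, plus strand).
Rbl1: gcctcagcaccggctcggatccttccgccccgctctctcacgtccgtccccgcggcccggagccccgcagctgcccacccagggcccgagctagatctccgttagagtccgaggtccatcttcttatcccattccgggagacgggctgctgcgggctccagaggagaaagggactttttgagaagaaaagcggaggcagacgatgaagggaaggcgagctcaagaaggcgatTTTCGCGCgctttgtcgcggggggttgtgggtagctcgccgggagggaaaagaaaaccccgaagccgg
E2f2: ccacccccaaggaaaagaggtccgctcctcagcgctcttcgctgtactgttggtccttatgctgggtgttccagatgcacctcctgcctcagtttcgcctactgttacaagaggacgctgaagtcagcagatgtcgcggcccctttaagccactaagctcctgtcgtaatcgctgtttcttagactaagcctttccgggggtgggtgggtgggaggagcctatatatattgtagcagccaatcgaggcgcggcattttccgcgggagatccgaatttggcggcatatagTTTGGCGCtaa
E2f3: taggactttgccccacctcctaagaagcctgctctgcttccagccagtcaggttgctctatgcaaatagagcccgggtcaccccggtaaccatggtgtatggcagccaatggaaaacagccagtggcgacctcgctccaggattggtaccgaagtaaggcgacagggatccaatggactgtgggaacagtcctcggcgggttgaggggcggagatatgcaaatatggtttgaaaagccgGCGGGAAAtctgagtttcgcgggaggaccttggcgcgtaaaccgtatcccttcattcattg
Rbl2: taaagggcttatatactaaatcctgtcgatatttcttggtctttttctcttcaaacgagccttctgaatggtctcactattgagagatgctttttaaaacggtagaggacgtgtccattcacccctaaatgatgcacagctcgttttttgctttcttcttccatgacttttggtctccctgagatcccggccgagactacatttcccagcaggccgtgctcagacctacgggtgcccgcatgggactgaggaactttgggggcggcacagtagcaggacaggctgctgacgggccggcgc

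The question of the first comparison was how the members responded to IR in Trp53+/+ B cells. Of the 10 members, 1 rose, Rbl2, and 2 fell, E2f2 and E2f8. Over all 13821 genes tested, 12.5% rose and 12.2% fell, so the members' share was not far from that of all genes, and their median log2 fold change was 0.11 against 0.01 over all genes. The RPKM of irradiated and control samples did not overlap for 5 members, Rbl2, Rbl1, E2f2, E2f4 and E2f8, where 46.2% of all genes did not overlap. For each of these 5 the exact two-sided permutation test gave p = 0.0286, the smallest that 4 samples against 4 allow. This p follows from the lack of overlap and adds nothing to it.

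Rbl2, which encodes p130, the pocket protein of quiescent cells, lies at chr8:93593956-93647743 on the plus strand (NCBIM37, the assembly that mm9 represents). In Trp53+/+ B cells it was at 30.7, 30.8, 30.6 and 30.4 RPKM without stress and at 62.6, 66.8, 66.5 and 67.9 after IR. All irradiated samples were above all control samples, and the control samples differed by less than 1 RPKM. The log2 fold change was 1.09 (SE 0.06, adjusted p = 2e-08 from limma), a 2.13-fold rise. The Trp53-/- B cells had Rbl2 at 30.6 in both control samples and at 14.2 and 16.8 after IR. The direction was opposite, with a log2 fold change of -0.97 (SE 0.08, adjusted p = 3.5e-06), so that irradiated samples of both genotypes lay on either side of the control values. The responses differed by 2.06 (SE 0.10, adjusted p = 5.3e-08) on the log2 scale, a 4.17-fold difference.

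Rb1, the retinoblastoma tumor suppressor gene, lies at chr14:73583480-73725629 on the minus strand. It was at 36.3, 38.4, 35.5 and 35.3 RPKM in Trp53+/+ control B cells and at 39.7, 36.5, 47.8 and 41.997 after IR. The groups overlapped, and the log2 fold change of 0.18 (SE 0.07, adjusted p = 0.054) did not pass. Without Trp53, Rb1 fell in B cells from 35.6 and 37.0 to 17.8 and 17.6 RPKM, a log2 fold change of -1.01 (SE 0.10, adjusted p = 1.4e-05). The difference between genotypes was 1.20 (SE 0.13, adjusted p = 5.4e-05), so that irradiated Trp53+/+ B cells held more Rb1 as well as more Rbl2 transcript than irradiated Trp53-/- ones. Rbl1, the gene of p107, the pocket protein of cycling cells, lies at chr2:156971629-157030270 on the minus strand. It was at 15.6, 15.7, 14.4 and 14.01 RPKM in Trp53+/+ control B cells and lower, at 10.3, 9.83, 11.03 and 11.2, after IR. Its log2 fold change of -0.48 (SE 0.07, adjusted p = 0.00012) passed the p threshold but not that on the fold change. The Trp53-/- values were 15.2 and 14.9 and then 13.5 in both irradiated samples, and the difference between genotypes of -0.33 did not pass (SE 0.12, adjusted p = 0.083).

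Together, the 3 pocket protein genes summed to 81.9 ± 2.33 RPKM in Trp53+/+ control B cells (SD, n = 4) and to 118 ± 6.20 after IR. Without Trp53, the sum was 82.0 ± 0.808 and, after IR, 46.7 ± 1.71 (SD, n = 2 each). The share of Rbl2 in the sum was 37.4% ± 0.867 in Trp53+/+ control B cells and 55.9% ± 2.46 after IR, while that of Rbl1 was 18.2% ± 0.572 and 8.96% ± 0.259. In irradiated Trp53-/- B cells, Rbl1 made up 28.9% ± 1.12 of the sum, against 18.4% ± 0.375 without stress. These shares add no test to those of the single genes, from which they were computed.

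**Figure D2:**
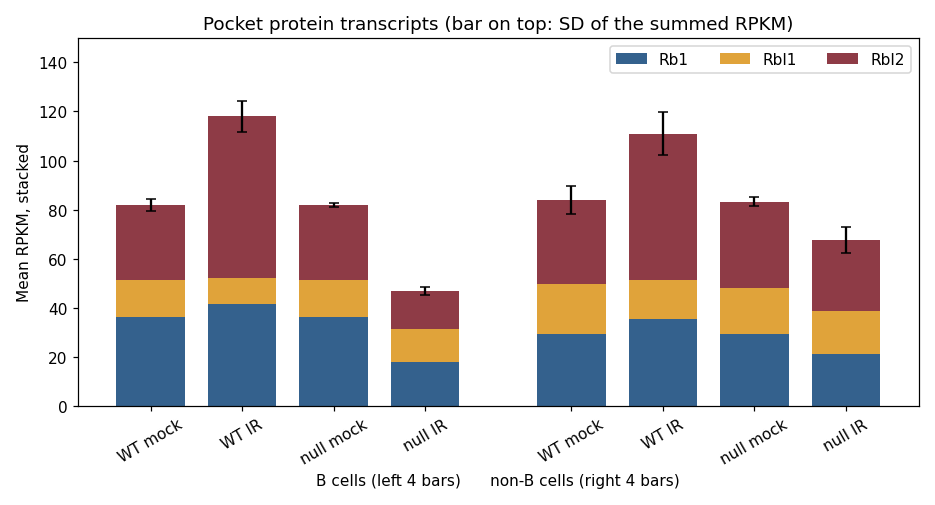
Mean RPKM of Rb1, Rbl1 and Rbl2, stacked, in the 8 groups, with bars on top for the SD of the summed RPKM (n = 4 WT, Trp53+/+, and n = 2 null, Trp53-/-). The sums of irradiated B cells are 118 in Trp53+/+ and 46.7 in Trp53-/-, and Rbl2 makes up most of the distance.

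E2f4 and E2f5 encode the E2F factors that act mainly as repressors with p107 and p130. E2f4 (chr8:107821563-107829269, plus strand) was at 47.0, 45.1, 46.6 and 44.5 RPKM in Trp53+/+ control B cells and at 49.4, 47.9, 50.3 and 51.0 after IR. The groups did not overlap, but the difference was small, a log2 fold change of 0.12 (SE 0.05, adjusted p = 0.074). E2f4 of Trp53-/- B cells went from 43.4 and 45.3 to 62.4 and 56.1 RPKM, a log2 fold change of 0.41 (SE 0.07, adjusted p = 0.00066) that passed the p threshold but not that on the fold change. The genotype difference of -0.30 passed (SE 0.09, adjusted p = 0.035), but its adjusted p was 0.15 with median-ratio scaling and 0.02 to 0.18 when 1 library was left out, with 7 of the 12 left-out libraries ending the call. These were both Trp53-/- control libraries, Trp53-/- irradiated replicate 1, Trp53+/+ control replicates 1, 2 and 3 and Trp53+/+ irradiated replicate 1.

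E2f5 (chr3:14578671-14606308, plus strand) was at 17.1, 15.8, 14.5 and 13.997 RPKM in Trp53+/+ control B cells and at 16.4, 18.7, 25.3 and 24.1 after IR. The last 2 samples were well above the controls, and the first 2, from the libraries with the most receptor reads in B cells, were near them. The log2 fold change was 0.43 (SE 0.12, adjusted p = 0.012). It was 0.67 (adjusted p = 0.00015) without the 5 irradiated libraries with most receptor reads, an alternative chosen after seeing the data, and was then called. E2f5 was also called higher with the mean receptor level of each library as a covariate, and with replicates 3 and 4 alone. E2f5 rose in Trp53-/- B cells from 17.0 and 15.5 to 26.4 and 24.4 RPKM, a log2 fold change of 0.63 (SE 0.18, adjusted p = 0.013). It fell under the fold threshold, to 0.56 and 0.52, with median-ratio scaling and quantile normalization, and it was not called without Trp53-/- control replicate 2 or irradiated replicate 1 (log2 fold changes from 0.56 to 0.69 over all left-out libraries). The difference between genotypes was -0.20 (SE 0.21, adjusted p = 0.57).

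The activator genes E2f1, E2f2 and E2f3, whose proteins bind pRb and drive S phase genes, did not respond alike in B cells. E2f2 (chr4:135728309-135751972, plus strand) was at 28.9, 25.8, 25.02 and 31.0 RPKM in Trp53+/+ control B cells and at 10.7, 8.52, 9.90 and 11.997 after IR. All irradiated samples were below all controls, and the log2 fold change was -1.39 (SE 0.10, adjusted p = 3.3e-07). It fell as well in Trp53-/- B cells, from 31.2 and 34.5 to 15.3 and 16.5 RPKM, a log2 fold change of -1.03 (SE 0.14, adjusted p = 0.00014). E2f2 thus fell in both genotypes, and the difference of -0.37 between them did not pass (SE 0.18, adjusted p = 0.17). E2f1 (chr2:154385143-154395628, minus strand) was at 6.19, 4.48, 6.10 and 5.49 RPKM in Trp53+/+ control B cells and at 5.75, 5.11, 6.47 and 6.65 after IR, overlapping groups with a log2 fold change of 0.10 (SE 0.13, adjusted p = 0.53). The Trp53-/- B cells had it at 5.59 and 4.48 and then at 7.26 and 6.91 RPKM, with a log2 fold change of 0.46 (SE 0.18, adjusted p = 0.064).

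E2f3 (chr13:29998444-30077537, minus strand) was at 7.55, 7.23, 6.79 and 7.07 RPKM in Trp53+/+ control B cells and at 7.60, 6.71, 11.6 and 13.3 after IR. As for E2f5, the 2 higher irradiated values came from the libraries with fewer receptor reads. With the mean receptor level of each library as a covariate, E2f3 was called higher. Whether those reads caused the spread was not tested. The log2 fold change of 0.38 (SE 0.18, adjusted p = 0.092) was -0.05 in Trp53+/+ replicates 1 and 2 alone and 0.80 in 3 and 4 alone, and 0.75 (adjusted p = 0.00017) without the 5 libraries. E2f3 of Trp53-/- B cells was at 7.71 and 7.25 and then at 9.19 and 9.95 RPKM, a log2 fold change of 0.34 (SE 0.25, adjusted p = 0.31).

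E2f7 and E2f8 encode the atypical E2F factors, which repress E2F genes late in S phase without pocket proteins. E2f8 (chr7:56121799-56136966, minus strand) was at 4.16, 2.58, 2.87 and 2.12 RPKM in Trp53+/+ control B cells and at 1.08, 0.912, 0.501 and 1.06 after IR. All irradiated samples were below all controls, with a log2 fold change of -1.30 (SE 0.21, adjusted p = 0.00026) on the log2(RPKM + 0.5) scale, which understates changes of genes at such low values. In Trp53-/- B cells it was at 1.83 and 1.34 and then at 2.04 and 2.16 RPKM, a log2 fold change of 0.33 (SE 0.30, adjusted p = 0.42). The genotype difference was -1.62 (SE 0.36, adjusted p = 0.0096), and 0.057 without Trp53-/- control replicate 2. Beside this, the control samples of the 2 genotypes had unlike values of E2f8, with a log2 difference of -0.70 that did not pass. E2f7 (chr10:110182495-110224440, plus strand) was low in all B cell samples, at 1.32, 0.925, 0.802 and 0.879 RPKM in Trp53+/+ controls and 1.10, 1.27, 0.962 and 0.953 after IR. Its groups overlapped, with a log2 fold change of 0.09 (SE 0.16, adjusted p = 0.65). The Trp53-/- samples were at 0.807 and 0.786 and then at 0.890 and 0.905 RPKM, with a log2 fold change of 0.11 (SE 0.23, adjusted p = 0.76).

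In Trp53-/- B cells, 1 of the 10 members rose, E2f5, and 3 fell, E2f2, Rb1 and Rbl2, where 13.1% of all genes rose and 11.2% fell. Between the genotypes, the response of 4 members differed, Rbl2, Rb1, E2f4 and E2f8, where that of 18.8% of all genes differed. Without stress, 0 of the 10 members differed between Trp53-/- and Trp53+/+ B cells in the limma fit, as did 0.0506% of all genes, and 1 member, E2f8, had an unadjusted p under 0.05. Their log2 differences lay between -0.70 and 0.25. The Trp53-/- groups had 2 samples each, and in simulated data of this size a log2 fold change of 1 was recovered for 60 of 100 genes in Trp53-/- B cells, and 37 of 100 genotype differences of that size. The simulation changed 200 of 12985 genes, a far smaller share than in these data, with the same added noise for all. These rates thus do not give the power of the tests here.

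**Figure D3:**
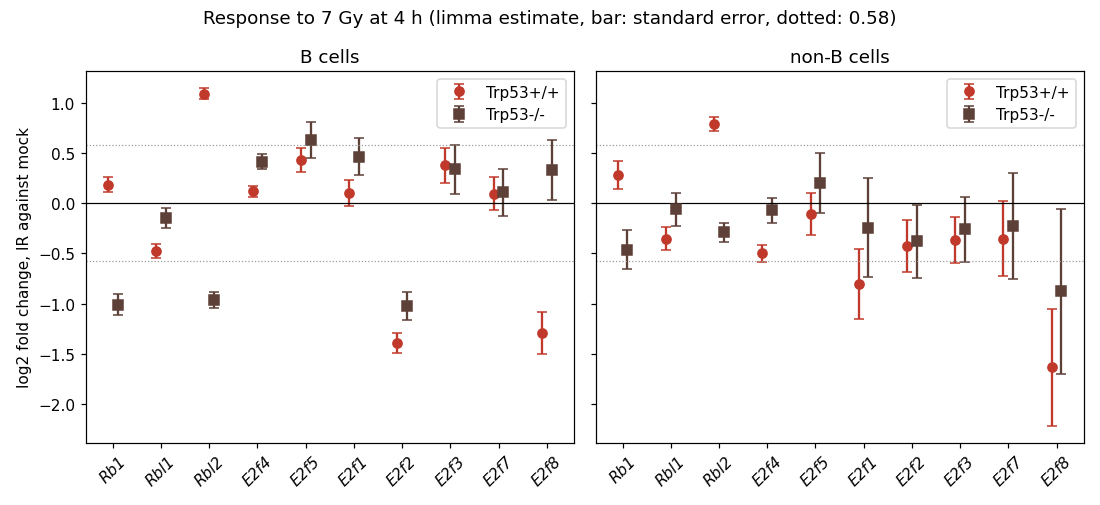
Log2 fold change of irradiated against control samples for the 10 members in B (left) and non-B cells (right), circles for Trp53+/+ and squares for Trp53-/-, with the standard error of the limma estimate as bars and dotted lines at 0.58 and -0.58. Rbl2 in B cells is at 1.09 in Trp53+/+ and -0.97 in Trp53-/-, whereas E2f2 is below -0.58 in both genotypes.

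The same question was put to the non-B cells, where the control samples were not alike. Trp53+/+ control replicates 1 and 2 held more transcripts of dividing and erythroid cells than 3 and 4. Other markers parted as well. The summed RPKM of neutrophil markers was 699.6, 638.6, 350 and 413.7 in control replicates 1 to 4. That of T cell markers was 407, 422.1, 590.8 and 578.5, and that of NK markers 93.9, 101.1, 151 and 165.7. Klf1, the erythroid master regulator, was at 56.0, 52.8, 8.24 and 19.2 RPKM in these 4 samples and at 2.59, 0.092, 0.968 and 1.27 after IR. The summed RPKM of 10 erythroid markers was 147 to 487 in the controls and 35.4 to 116 after IR, and 6 of the 10 were called lower. For Trp53-/- samples this sum was 69.2 and 350 without stress and 121 and 102 after IR. The part of this shift in the values of the members was not tested.

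Of the 10 members, 1 rose in Trp53+/+ non-B cells, Rbl2, and 0 fell, where 5.74% of all 14018 genes rose and 4.11% fell, with 4 members lower at an unadjusted p under 0.05. Their median log2 fold change was -0.36 against -0.03 over all genes. The RPKM did not overlap between irradiated and control samples for 2 members, Rbl2 and E2f4, where 22.1% of all genes did not overlap. The exact permutation test gave each the smallest possible p of 0.0286, which follows from the lack of overlap. Rbl2 was at 32.0, 33.5, 35.6 and 36.0 RPKM in controls and at 57.2, 60.2, 59.3 and 61.4 after IR. Control replicates 1 and 2 were below control replicates 3 and 4, by less than 4 RPKM. The log2 fold change of Rbl2 was 0.79 (SE 0.07, adjusted p = 2.2e-05). Without Trp53, Rbl2 was at 37.2 and 33.4 and then at 26.8 and 30.8 RPKM, a log2 fold change of -0.29 (SE 0.10, adjusted p = 0.17). The genotype difference of 1.08 (SE 0.12, adjusted p = 0.00046) passed, and Rbl2 was the 1 member of 10 for which it did, where 7.35% of all genes passed.

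Rb1 was at 33.6, 32.6, 26.9 and 23.6 RPKM in Trp53+/+ control non-B cells and at 27.9, 37.6, 36.3 and 40.6 after IR, with a log2 fold change of 0.28 (SE 0.14, adjusted p = 0.17). Without Trp53, Rb1 was at 26.7 and 32.0 and then at 20.3 and 21.8 RPKM, with a log2 fold change of -0.46 (SE 0.19, adjusted p = 0.27). The signs were those of B cells, but the genotype difference of 0.74 did not pass (SE 0.24, adjusted p = 0.077). This difference was called in 1 of 12 fits with 1 library left out, that without irradiated Trp53+/+ replicate 1 (0.86, adjusted p = 0.037). Over the 12 fits it ran from 0.62 to 0.87, with an adjusted p of up to 0.26. Rbl1 was at 23.7, 22.1, 17.4 and 18.4 RPKM in Trp53+/+ controls and at 13.9, 14.2, 17.4 and 17.8 after IR, so that the distance was in replicates 1 and 2 (log2 fold change -0.35, SE 0.12, adjusted p = 0.057). The Trp53-/- level of Rbl1 was at 17.98 and 19.1 and then at 16.8 and 18.7 RPKM. The summed RPKM of the 3 pocket protein genes was 83.9 ± 5.75 in Trp53+/+ controls and 111 ± 8.68 after IR (SD, n = 4 each), and 83.2 ± 1.82 and 67.6 ± 5.25 in Trp53-/- samples (SD, n = 2 each).

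E2f4 was at 60.7, 55.5, 48.5 and 53.3 RPKM in Trp53+/+ control non-B cells and at 42.03, 36.9, 37.6 and 36.8 after IR. All irradiated samples were below all controls, and the log2 fold change of -0.50 (SE 0.09, adjusted p = 0.0033) passed the p threshold but not that on the fold change. E2f4 of Trp53-/- non-B cells was at 45.5 and 54.0 and then at 50.3 and 44.1 RPKM. E2f5 was at 8.68, 10.5, 14.3 and 13.1 RPKM in Trp53+/+ controls and at 7.12, 9.82, 11.6 and 15.3 after IR, in overlapping groups (log2 fold change -0.11, SE 0.21, adjusted p = 0.76). In both treatments replicates 1 and 2 had less E2f5 than 3 and 4.

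The other E2F genes followed the split between the control replicates. E2f1 was at 15.7, 14.5, 5.45 and 5.76 RPKM in Trp53+/+ control non-B cells and at 5.48, 5.81, 4.59 and 4.57 after IR (log2 fold change -0.80, SE 0.35, adjusted p = 0.12). E2f2 was at 41.9, 40.5, 22.8 and 23.2 RPKM and then at 33.3, 23.7, 19.7 and 17.4 (log2 fold change -0.42, SE 0.26, adjusted p = 0.27). E2f3 was at 10.1, 8.65, 5.34 and 4.86 RPKM and then at 4.74, 5.999, 4.35 and 6.14 (log2 fold change -0.36, SE 0.23, adjusted p = 0.29). In each of the 3 genes, control replicates 1 and 2 stood above control replicates 3 and 4.

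E2f7 was at 3.69, 3.85, 0.987 and 1.17 RPKM in the same controls and at 2.37, 1.27, 1.39 and 1.26 after IR (log2 fold change -0.36, SE 0.37, adjusted p = 0.53). E2f8 followed the same split, with 31.2, 30.6, 6.69 and 7.55 RPKM in the Trp53+/+ control non-B cells and 10.5, 3.99, 3.09 and 2.96 after IR. Each irradiated sample was below the control sample of its own number, but the groups overlapped. Its log2 fold change of -1.64 (SE 0.58) had an adjusted p of 0.07, and of 0.028 with the replicate number as a block, in which E2f8 was called lower. The labels name no pairs, and control and irradiated spleens came from different mice, so this block rests on the values themselves. Without control replicate 3 or irradiated replicate 1, E2f8 was also called, and its log2 fold change ran from -2.02 to -1.29 when 1 library was left out. E2f8 of Trp53-/- non-B cells was at 4.92 and 16.5 and then at 5.83 and 3.81 RPKM, and the control sample with 16.5 was the one with 350 RPKM of erythroid markers.

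In Trp53-/- non-B cells, 0 of the 10 members passed in the limma fit, where 0.193% of all genes rose and 0.250% fell. At an unadjusted p under 0.05, 2 members were lower, Rb1 and Rbl2. Without stress, 0 of the 10 members differed between Trp53-/- and Trp53+/+ non-B cells, also at an unadjusted p under 0.05, where 0.0428% of all genes were called. Here the log2 differences lay between -0.69 and 0.24, a range set by E2f8 and E2f5.

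The cell types were compared in a fit over the 16 Trp53+/+ samples and 14598 genes. Without stress, 3 of the 10 members were lower in B than in non-B cells, E2f8, E2f7 and E2f1, and 0 were higher, where 24.6% of all genes were called. E2f8 was lower by a log2 difference of -2.20 (SE 0.46, adjusted p = 0.0011), and every B sample was below every non-B sample. E2f7 (-0.82, SE 0.31, adjusted p = 0.043) and E2f1 (-0.70, SE 0.27, adjusted p = 0.048) overlapped between the cell types and rested on non-B replicates 1 and 2. With replicates 3 and 4 alone the log2 differences of E2f7 and E2f1 were -0.23 and 0.04. With treatment and replicate number as a block, E2f1 had an adjusted p of 0.058 and was not called, while E2f7 (0.026) and E2f8 (0.00056) were. When 1 library was left out, E2f8 was called in 16 of 16 fits, E2f7 in 7 and E2f1 in 2, with E2f1 called only without non-B control replicate 3 or 4. A further 4 members, E2f4, Rb1, Rbl1 and Rbl2, passed the p threshold with smaller differences.

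The response to IR differed between the cell types for 3 members, E2f2, E2f4 and Rbl2, where that of 28.0% of all genes differed. E2f2 had the stronger decrease in B cells, by -0.97 (SE 0.30, adjusted p = 0.022). E2f4 differed by 0.62 (SE 0.09, adjusted p = 0.0002), being slightly above the controls in B cells and below them in non-B cells. The rise of Rbl2 was larger in B cells by 0.30 (SE 0.07, adjusted p = 0.0062). The difference for Rbl2 was 0.17 (adjusted p = 0.23) after quantile normalization and 0.23 (adjusted p = 0.14) in replicates 1 and 2 alone. That for E2f2 was -0.93 (adjusted p = 0.12) without the 5 libraries with most receptor reads, a fit left with 1 irradiated non-B library, replicate 2. E2f8 gave no call, with an adjusted p of 0.73.

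The binding partners of the members were taken from a list of 10, the dimerization partners Tfdp1 and Tfdp2, E2f6, MuvB subunits, Mybl2 and Foxm1. In Trp53+/+ B cells, 1 of the 10 rose and 1 fell, near the shares of 12.5% and 12.2% over all genes. Tfdp1, the main DNA-binding partner of E2F factors, rose from 17.0 to 26.8 RPKM in controls to 43.8 to 46.5, a log2 fold change of 1.07 (adjusted p = 6.3e-06), and Tfdp2 fell by 0.65 on the log2 scale (adjusted p = 0.0065). Both moved the same way in Trp53-/- B cells, where 3 of the 10 rose and 1 fell, against 13.1% and 11.2% of all genes. Tfdp1 went from 17.0 and 16.2 to 52.5 and 43.3 RPKM there (adjusted p = 1.6e-05), and Tfdp2 had a log2 fold change of -1.16 (adjusted p = 0.0022). In Trp53+/+ non-B cells 1 of the 10 fell, E2f6, a repressor that needs no pocket protein (log2 fold change -0.88, adjusted p = 0.0051), where 4.11% of all genes fell, and 2 fell with the replicate block. In Trp53-/- non-B cells 0 were called, also at an unadjusted p under 0.05. The median log2 fold change of the list in B cells was -0.22 for Trp53+/+ and 0.09 for Trp53-/- samples, and for non-B samples it was -0.34 and 0.01, against medians of 0.01, 0.02, -0.03 and -0.02 over all genes in the same order.

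Of the kinases, cyclins and inhibitors that set pocket protein phosphorylation, 15 of the 16 listed were tested. In Trp53+/+ B cells, 5 rose and 5 fell, where 12.5% of all genes rose and 12.2% fell. The inhibitor genes Cdkn1a (log2 fold change 5.83, adjusted p = 1.9e-11), Cdkn2b (2.58, adjusted p = 1e-06) and Cdkn1c (1.01, adjusted p = 0.0008) rose, with values of 0.02, 0.59 and 0.13 in Trp53-/- B cells, none of them called. Ccne1, the gene of cyclin E1, which activates Cdk2, fell in Trp53+/+ B cells (-1.64, adjusted p = 5.2e-07) and in Trp53-/- ones (-1.78, adjusted p = 1.1e-05). The inhibitor genes Cdkn2d (-1.20, adjusted p = 0.00014) and Cdkn1b (-0.93, adjusted p = 5.6e-08) fell too, also in Trp53-/- B cells (-1.32 and -0.83), so the list did not move one way. Of these, Cdkn2d (0.793 to 1.10 RPKM in Trp53+/+ control B cells, 0 to 0.21 after IR) and Cdkn1c (0.161 to 0.55, then 0.929 to 1.29) were near the floor. Cdkn2b was near the floor in these controls too, at 0.383 to 0.94 RPKM, and at 5.08 to 8.14 after IR. Cdkn1b was at 46.1 to 47.6 RPKM in the same controls. In Trp53+/+ control non-B cells, Cdkn1c was low as well, at 0.482 to 0.995 RPKM. Of the same 15, 3 rose and 3 fell in Trp53-/- B cells, against 13.1% and 11.2% of all genes. In Trp53+/+ non-B cells 2 rose, Cdkn1a (3.99, adjusted p = 3.9e-07) and Cdkn1c (0.81, adjusted p = 0.016), and 3 fell, Ccne1 (-1.85, adjusted p = 0.00051), Cdk4 (-0.71, adjusted p = 0.00037) and Cdk2 (-0.66, adjusted p = 0.023), where 5.74% of all genes rose and 4.11% fell. In Trp53-/- non-B cells 0 were called, with 1 at an unadjusted p under 0.05, and the values of Cdkn1a, Cdkn1c, Ccne1, Cdk4 and Cdk2 were 0.39, -0.19, -0.81, 0.08 and -0.07. The list had a median log2 fold change of -0.03 (Trp53+/+) and 0.04 (Trp53-/-) in B cells and, for non-B samples, of -0.14 and 0.02.

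The genes that E2F factors activate for DNA replication were followed with a list of 42 G1/S genes, all tested. In Trp53+/+ B cells, 4 of the 42 rose and 5 fell, where 12.5% and 12.2% of all genes did, with a median log2 fold change of -0.08. Among those that rose were Rrm2 (1.56, adjusted p = 1.9e-05) and Msh6 (1.32, adjusted p = 2.4e-08), genes of nucleotide supply and mismatch repair. Those that fell included Lig1 (-0.84, adjusted p = 0.00056), Pold1 (-0.80, adjusted p = 5e-06) and Mcm10 (-0.65, adjusted p = 0.015), genes of the replication fork. In Trp53-/- B cells, 19 of the 42 rose, against 13.1% of all genes, and 0 fell, also at an unadjusted p under 0.05, with a median of 0.59. Mcm10 was among them (0.97, adjusted p = 0.015), and Rrm2, Lig1 and Pold1 were at 0.39, 0.43 and -0.12 and were not called. Msh6, at 0.51 (adjusted p = 0.0015), passed the p threshold but not that on the fold change. The genotype difference in B cells was called for 25 of the 42, where it was called for 18.8% of all genes, with 23 of them lower in Trp53+/+ cells, with a median of -0.70.

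In Trp53+/+ non-B cells, 22 of the 42 G1/S genes fell, against 4.11% of all genes, and 0 rose (1 at an unadjusted p under 0.05), with a median log2 fold change of -0.91. Cdc6 (-2.13, adjusted p = 0.027), Uhrf1 (-1.83, adjusted p = 0.012) and Gins2 (-1.67, adjusted p = 0.017) had the largest decreases. They were at -0.53, 0.05 and -0.42 in Trp53-/- non-B cells, where 0 of the 42 were called, also at an unadjusted p under 0.05. The genotype difference in non-B cells was called for 2 of the 42, lower in Trp53+/+ cells, a share below the 7.35% of all genes. Its median was -0.895, and at an unadjusted p under 0.05, 16 were lower and 0 higher. The count of 22 moved with the libraries. It was 37 with Trp53+/+ replicates 1 and 2 alone, 4 with 3 and 4 alone, 13 without control replicate 1 or 2, 14 and 12 without irradiated replicates 2 and 3, and 2 without the 5 libraries with most receptor reads, where irradiated replicate 2 was the 1 Trp53+/+ library left in its group. In the controls the summed RPKM of the list was 1362, 1276, 696 and 758, and after IR it was 581, 587, 516.5 and 590, so that each irradiated sample was below each control sample.

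A second list of 30 G2/M genes holds those that p130 and MuvB repress in resting cells. In Trp53+/+ B cells 19 of the 30 fell, against 12.2% of all genes, and 0 rose (1 at an unadjusted p under 0.05), with a median log2 fold change of -0.75. They included Cdk1 (-1.35, adjusted p = 0.00011), Cenpf (-1.32, adjusted p = 0.00073) and Kif11 (-1.21, adjusted p = 0.00047), genes of mitotic entry and the spindle. In Trp53-/- B cells these were at 0.01, -0.62 and 0.19, and 0 of the 30 were called, with 4 at an unadjusted p under 0.05. The genotype difference was called for 4 of the 30, a share below the 18.8% of all genes. Its median was -0.69 against -0.06 over all genes, and at an unadjusted p under 0.05, 12 were lower and 0 higher. In unstressed B cells, the median difference of Trp53-/- from Trp53+/+ was -0.40 against 0.01 over all genes, with 0 called. The erythroid markers fell as well in Trp53+/+ B cells, where 7 of the 10 were lower and their summed RPKM went from 61.8 to 135 in controls to 48.6 to 55.2 after IR. Their part in the count of 19 was not tested. In Trp53+/+ non-B cells 7 of the 30 fell, against 4.11% of all genes, and 0 rose, also at an unadjusted p under 0.05, among them Ccnb1 (-2.27, adjusted p = 0.02), Ccnb2 (-1.84, adjusted p = 0.036) and Nek2 (-1.76, adjusted p = 0.027), with values of -1.12, -1.02 and -0.73 in Trp53-/- cells. The median was -1.25, and 22 of the 30 fell with the replicate number as a block. The count was 26 with replicates 1 and 2 alone, 2 with replicates 3 and 4 alone, and between 1 and 23 when 1 library was left out. It was 2, 1, 23 and 12 without control replicates 1, 2, 3 and 4, 4, 1 and 2 without irradiated replicates 2, 3 and 4, and 4 without either irradiated Trp53-/- library. In Trp53-/- non-B cells 0 were called, also at an unadjusted p under 0.05, with a median of -0.42. The genotype difference in non-B cells was called for 0 of the 30, where it was called for 7.35% of all genes. Its median was -0.74, with 1 gene lower at an unadjusted p under 0.05.

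**Figure D4:**
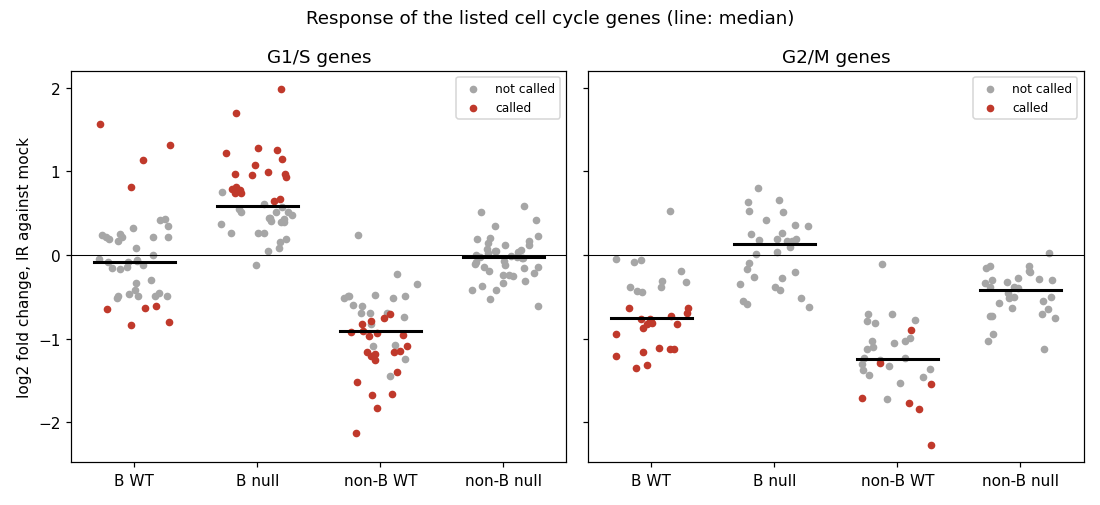
Log2 fold changes of irradiated against control samples for the 42 G1/S genes (left) and the 30 G2/M genes (right) in the 4 comparisons, with called genes in red, the others in grey and the median as a black line. In B cells the G1/S median is -0.08 in Trp53+/+ and 0.59 in Trp53-/- samples, and that of the G2/M genes -0.75 and 0.13.

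E2f8 was lowest and highest in the samples with the lowest and highest G2/M sums. The lowest summed RPKM of the 30 genes, 145, was in the irradiated Trp53+/+ B sample with 0.501 RPKM of E2f8, and the highest, 899, in the control Trp53+/+ non-B sample with 31.2 RPKM. Between these ends the order was not the same, with 2.12 RPKM of E2f8 at a sum of 174 in Trp53+/+ control B replicate 4 and 1.08 RPKM at 182 in irradiated B replicate 1. At a like sum, B cells had less E2f8 than non-B cells, with 4.16 RPKM at 354 in B control replicate 1 and 7.55 RPKM at 298 in non-B control replicate 4. The 2 genes of 14688 whose log2 values were most like those of E2f8 over the 24 samples were Espl1 (Pearson r = 0.976) and Anln (r = 0.974), which encode separase and anillin of mitosis and cytokinesis. For E2f7 they were Neil3 (0.959) and Iqgap3 (0.949), and for E2f1 Chtf18 (0.936) and Zwilch (0.927). These correlations describe samples that fall into groups and carry no test.

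Rbl2 was most like 9030617O03Rik (r = 0.987) and Slc2a9 (0.971), and Rb1 most like Ehd4 (0.918) and Chst14 (0.880). Between the members, Rbl2 and Rb1 had an r of 0.711 and E2f7 and E2f8 one of 0.834. Rbl1 was most like Slc11a2 (0.954), the iron transporter gene, and Haus4 (0.947), and had an r of 0.833 with E2f8. E2f2 was most like Galns (0.948) and Crat (0.938), E2f3 like Spata24 (0.912) and Bckdk (0.908), and E2f4 like Pold2 (0.913) and Mcm7 (0.912), which serve DNA replication. E2f5 was most like Zfp397 (0.960) and Atr (0.952), the gene of a DNA damage kinase.

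**Figure D5:**
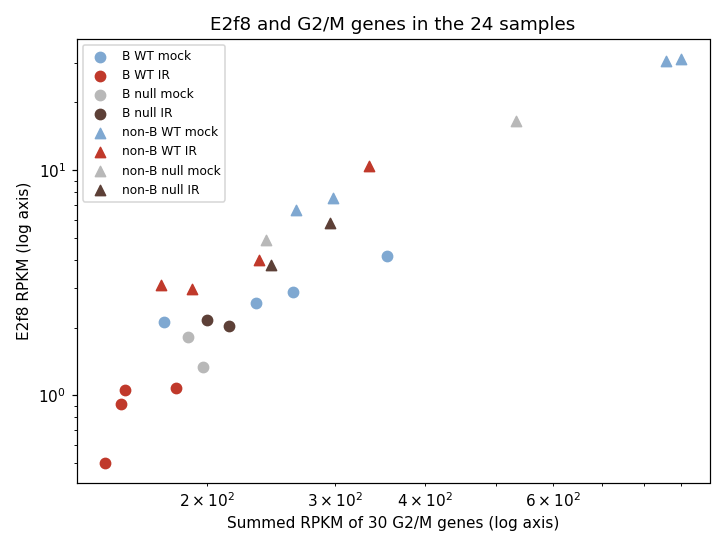
RPKM of E2f8 against the summed RPKM of the 30 G2/M genes in the 24 samples, both on log axes, with circles for B and triangles for non-B cells and colors for genotype and treatment. The irradiated Trp53+/+ B samples are at the lower left and control non-B replicates 1 and 2 of Trp53+/+ at the upper right.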

How the data were processed

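The RPKM values that the authors deposited, 1 file per sample, came from reads with low-quality bases masked, TopHat alignments against mm9 (TopHat2 2.0.8 in the submitters' processing notes), removal of duplicate copies of reads and counting over UCSC genes by featureCounts (1.4.5 in the same notes). Counts were not analysed here. Tests were run in R 4.3.3 with the linear models of limma 3.58.1, moderated with a mean trend, on log2(RPKM + 0.5), in 1 fit over the 12 samples of each cell type and 1 over the 16 Trp53+/+ samples, keeping a gene when any Trp53+/+ sample of the fit exceeded an RPKM of 1. The p-values were adjusted by Benjamini-Hochberg over all genes tested. Differences between responses needed an adjusted p under 0.05 only. Depth was estimated from the steps of low RPKM values and exonic lengths of GENCODE for NCBIM37, and 58.3% to 71.1% of these low values came within 0.1 of a whole number of reads. Per the methods, each group came from as many mice as it has samples.

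The members, gene lists and tests were chosen with earlier results of these data known. From each list at most the 3 called genes with the largest fold change per direction and cell type in Trp53+/+ cells were named, and for each member the 2 genes with the highest correlation. A gene that this rule names is not reported here. Klf1 was named after its values were seen. Deviations of same-numbered control and irradiated Trp53+/+ samples correlated by 0.156 to 0.323 in non-B cells, every pair over 0.1, and by 0.015 to 0.087 in B cells. These correlations come from the values under test, and control and irradiated spleens came from different mice. No main fit used pairs, and the replicate block was only an alternative. Whether the split of replicates 1 and 2 from 3 and 4 gave the correlations in non-B cells was not tested. The alternatives were pseudocounts of 0.1 and 1, other filters, median-ratio and quantile scaling, the replicate block, subsets of the samples, a receptor covariate and other thresholds. In simulated data, 190 of 200 genes changed by 1 on the log2 scale in Trp53+/+ B cells were recovered over 12985 genes, with 4 false calls. Python 3.11.15, numpy and scipy served the rest.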

Additional observations from a re-analysis of the deposited data

Results flagged for a closer look

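In irradiated Trp53+/+ non-B cells, replicate 1 stood apart from the other 3 samples for E2f4 (42.03 RPKM), E2f7 (2.37 RPKM) and E2f8 (10.5 RPKM), in each case as the highest. These were 3 lone values in 40 sets of 4 samples, where chance gives about 1 in 20. This library also had the highest summed RPKM of the irradiated Trp53+/+ non-B samples for erythroid markers (116) and G2/M genes (335).

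The responses to IR differed between the genotypes in B cells for Rbl2 (2.06 on the log2 scale), Rb1 (1.20), E2f8 (-1.62) and E2f4 (-0.30), and in non-B cells for Rbl2 (1.08). Between B and non-B cells of Trp53+/+ mice they differed for E2f2 (-0.97), E2f4 (0.62) and Rbl2 (0.30). In each case the adjusted p of the limma contrast was under 0.05.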

How the results depend on the processing

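The rise of Rbl2 in Trp53+/+ cells (1.03 to 1.12 on the log2 scale in B, 0.75 to 0.83 in non-B cells over the alternatives), its genotype differences, the decreases of E2f2 and E2f8 in Trp53+/+ B cells, those of Rb1, Rbl2 and E2f2 in Trp53-/- B cells, the genotype difference of Rb1 in B cells, the lower E2f8 of unstressed B against non-B cells and the cell type difference of E2f4 stayed called under every alternative and without any 1 library. The cell type differences of E2f2 and Rbl2 stayed called without any 1 library. The Trp53-/- groups held 2 samples each. Without the 5 irradiated libraries with most receptor reads, 1 irradiated Trp53+/+ non-B library is left, so that counts there assume that it varies like the other groups. The cause of the changes below was not tested.

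With Trp53+/+ replicates 1 and 2 alone, E2f3 in Trp53+/+ B cells was at -0.046 and Rb1 in non-B cells at -0.033. With replicates 3 and 4 alone, E2f3 and E2f7 in non-B cells were at 0.022 and 0.21 and E2f1 between unstressed B and non-B cells at 0.042. E2f7 in Trp53+/+ B cells was at -0.10 after quantile normalization, -0.044 with a receptor covariate and -0.012 without the 5 libraries, an alternative chosen after seeing the data. E2f5 in Trp53+/+ non-B cells ran from -0.28 to 0.074 when 1 library was left out.

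In Trp53+/+ B cells, 5 members were called with replicates 3 and 4 alone, the covariate, no fold threshold or without the 5 libraries. E2f7 did not pass the filter on low values in B cells with replicates 3 and 4 alone or with a stricter filter, and was not tested there. The partner count was 1 with replicates 1 and 2 or 3 and 4 alone and 6 with no fold threshold, which gave 21 G1/S genes, and the G2/M count was 10 with replicates 3 and 4 alone. In Trp53-/- B cells, the G2/M count was 2 after quantile normalization, with the replicate block or with either pair of Trp53+/+ replicates, 1 with the covariate, no fold threshold or without the 5 libraries, and 0 to 3 with 1 library left out.

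In Trp53+/+ non-B cells, 2 members were called with the replicate block, replicates 3 and 4 alone or no fold threshold, 4 with replicates 1 and 2 alone, and 1 to 2 with 1 library left out. Partners numbered 2 with the replicate block, 5 with replicates 1 and 2 alone, 3 with no fold threshold, 0 with replicates 3 and 4 or the covariate, and 1 to 3 with 1 library left out. The kinase list gave 3 with replicates 3 and 4, the covariate or an adjusted p under 0.01. G1/S genes numbered 37 with replicates 1 and 2, 4 with 3 and 4, 2 with the covariate, 9 at an adjusted p under 0.01, and 12 to 32 with 1 library left out. G2/M genes numbered 11 after quantile normalization, 22 with the replicate block, 26 with replicates 1 and 2, 2 with 3 and 4, 0 with the covariate, 1 at an adjusted p under 0.01, and 1 to 23 with 1 library left out. The list counts without the 5 libraries are left out of this paragraph, since that fit holds 1 irradiated Trp53+/+ non-B library.

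The genotype difference was called for 2 members in non-B cells with replicates 3 and 4 alone and for 1 to 2 with 1 library left out, and for 2 to 4 in B cells, 2 without Trp53-/- control replicate 2. Between unstressed cell types 1 member was called with no filter, quantile normalization, replicates 3 and 4, an adjusted p under 0.01 or without the 5 libraries, 5 with replicates 1 and 2, 7 with no fold threshold, and 1 to 3 with 1 library left out. The response differed between cell types for 3 to 5 members with 1 library left out, 5 without non-B control replicate 4. In B cells, the replicate block gave E2f4 an adjusted p of 0.062 for the genotype difference. Between unstressed cell types it gave E2f1 an adjusted p of 0.058, which ended that call.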
